A study of Rattus norvegicus with 25 samples.

Results

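Gene expression in the esophageal epithelium of rats given delta-tocopherol or gamma-enriched tocopherol was compared with that of rats given alpha-tocopherol, all under the same carcinogen. The 10 arrays titled NMBA+Delta-T (5 rats) or NMBA+Gamma enriched-T (5 rats) were pooled and set against the 5 arrays titled NMBA+Alpha-T, so that 15 of the 25 arrays of the series carried the comparison. Every animal was a male F344 rat, an inbred strain, and each array held total RNA of 1 rat's esophageal epithelium labelled with the dye Cy3. All 15 rats had received NMBA, N-nitrosomethylbenzylamine, a nitrosamine that the rat esophagus activates and that causes squamous tumours there; they differed in the tocopherol that supplemented it. The other groups were 5 Control rats and 5 rats labelled NMBA alone. The sources used here do not give doses, routes, durations, ages or the composition of the gamma-enriched preparation, so matching of doses cannot be stated, and enriched need not mean free of other forms. The series design calls the 5 rats of a group biological replicates. With 1 array per rat, p-values measure the spread between these rats.

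Tocopherols are the vitamin E forms with a saturated side chain, and they differ in the methyl groups on their chromanol ring. Alpha-tocopherol carries the most ring methyl groups, gamma-tocopherol lacks one of them and delta-tocopherol lacks another as well. In liver, the alpha-tocopherol transfer protein retains the alpha form, while the other forms are broken down more readily through side-chain oxidation by cytochrome P450 4F enzymes. The comparison therefore asked whether ring forms other than alpha gave a different epithelial expression pattern from alpha.

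The arrays were printed on slides that did not hold the groups evenly. Slide 1 held the 5 alpha rats and delta rats 1 to 3. Slide 2 held delta rats 4 and 5 and all 5 gamma-enriched rats, with 1 Control rat. The other Control rats lay on slide 3 and the NMBA rats on slides 3 and 4. No gamma-enriched, NMBA or Control array shared a slide with an alpha array. A difference of alpha from any of those groups therefore cannot be told apart from a difference of slides. Only the delta group spanned both slides. Delta rats 1 to 3 against alpha rats 1 to 5, within slide 1, is therefore given beside many of the pooled values. A pooled value without it does not show what held within the slide. On slide 1 itself, 4 of the 5 alpha arrays lay in row 1 and the 3 delta arrays in row 2. The squamous epithelial markers examined were all detected (8 of 8), and Krt13, Krt4, Krt14 and Tp63 lay above the 99.2 percentile of mean signal among tested genes. Krt5, Evpl and Ppl lay at the 86.8, 92.2 and 93.5 percentiles, and Dsg3 at the 53.6 percentile. The share of non-control spots well above background was 78.0 ± 1.12% in alpha (SD, n = 5, range 77.0 to 79.8%) and 75.7 ± 1.67% in the pooled rats (SD, n = 10, range 72.4 to 78.0%). This difference had a two-sided exact permutation p of 0.0193 over 3003 assignments, and 0.0579 after Benjamini-Hochberg adjustment over 3 array measures. The number of arrays limits the precision of every value.

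In the pooled comparison very few genes passed the test. Levels are log2 signals relative to the 75th percentile of the same array, and differences are on that log2 scale. Among 12343 named genes, 3 (0.0243%) had an adjusted p under 0.05 in limma's moderated test with Benjamini-Hochberg adjustment, and all 3 were lower in the delta and gamma-enriched rats. They were Dusp1, a phosphatase that switches off stress-activated and mitogen-activated kinases, and the odorant receptor genes Or13g1 and Or1j4. No gene was called higher. At an unadjusted p under 0.05, 1424 genes (11.5%) were found, of which 447 were higher (3.62%) and 977 lower (7.92%). The median difference over all genes was -0.06, with 4904 genes higher and 7439 lower. These counts and shares over all genes are the background for the gene list counts below.

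Dusp1 (NCBI gene 114856) was the one called gene whose probe was well above background on all 15 arrays. Its levels in alpha rats 1 to 5 were -1.06, -0.89, -1.06, -0.71 and -0.19. In delta rats 1 to 5 they were -0.96, -1.50, -1.60, -2.09 and -1.68, and in the gamma-enriched rats -1.72, -1.60, -2.40, -2.20 and -1.89. All pooled rats except delta rat 1 lay below every alpha rat, so the groups overlapped by that 1 rat. The pooled mean was lower by 0.98 ± 0.18 (SE), a 1.97-fold difference with a 95% interval from -1.35 to -0.62 (limma adjusted p = 0.0493). Rats given NMBA alone averaged -1.55 ± 0.30 (SD, n = 5) and Control rats -1.71 ± 0.19 (SD, n = 5), against -0.78 ± 0.36 in alpha (SD, n = 5) and -1.76 ± 0.41 in the pooled rats (SD, n = 10). The alpha rats were thus the group that stood above the others in mean level, and they were also the only group wholly on slide 1. Within slide 1 the difference was -0.57 ± 0.23 (SE), with a 95% interval from -1.06 to -0.08 and a limma adjusted p of 0.961. With slide as a block it was -0.61 ± 0.27, and the call ended (limma adjusted p = 0.698).

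The RefSeq promoter of Dusp1 is shown because it is the called gene measured above background in every rat and belongs to 2 of the gene lists described below, the glucocorticoid-induced and the immediate early genes. It lies at chr10:17184603-17184852 of GRCr8, plus strand, and covers the 250 bases before the annotated start. Capitals mark the full cAMP response element TGACGTCA and the E-box CACGTG, both of which read the same on either strand. The full element began 124 bases and the E-box 107 bases before the start. The shorter core, TGACG, lay 172 bases before the start, and it recurs within the full element on both strands. Of 33469 RefSeq promoters of the same length, 1.59% held the full element on either strand, 5.59% the E-box and 18.2% the core. These are letter matches only.
Dusp1: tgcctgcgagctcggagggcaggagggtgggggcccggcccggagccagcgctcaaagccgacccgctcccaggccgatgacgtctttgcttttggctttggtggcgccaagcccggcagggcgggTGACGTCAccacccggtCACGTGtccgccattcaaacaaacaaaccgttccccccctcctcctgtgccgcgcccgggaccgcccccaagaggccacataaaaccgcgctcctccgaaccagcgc

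Or13g1 (NCBI gene 365302) and Or1j4 (NCBI gene 405115) encode odorant receptors, whose usual site is the olfactory epithelium. Or13g1 measured -7.18, -7.02, -7.10, -6.28 and -7.14 in alpha rats 1 to 5, near the bottom of the signal range. Delta rats measured -7.71, -8.29, -8.01, -8.60 and -9.0, and gamma-enriched rats -9.76, -9.23, -8.40, -8.41 and -8.68. The groups did not overlap (limma adjusted p = 0.0440). The probe was well above background on 4 of 5 alpha arrays and on 0 of 10 pooled arrays, so the size of its difference was not measured. The alpha mean was 2.04-fold above the higher of each pooled array's own value and its lowest signal well above background. That is no strict bound, since a probe not above background can have a higher signal, such as Saa4 at -6.45 in delta rat 2. Or1j4 averaged -6.59 ± 0.18 in alpha (SD, n = 5, range -6.84 to -6.34) and -7.76 ± 0.47 in the pooled rats (SD, n = 10, range -8.58 to -6.98). It was well above background on all 5 alpha arrays and 1 pooled array, so the size of its difference was not measured (limma adjusted p = 0.0493). Neither probe was above background in delta rats 1 to 3, and no slide 1 difference is given for them. With slide as a block the call ended for both (limma adjusted p = 0.698).

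Genes of low signal were mostly lower in the pooled rats. With genes ranked by mean signal into 5 equal bins, the dimmest bin held 2469 genes. In it, the median pooled difference was -0.17, and 499 genes were lower against 68 higher at an unadjusted p under 0.05. Of that bin, 40.1% were well above background on all 15 arrays, against 97.5 to 100% of the other bins. The middle bin had a median of -0.003, with 131 genes higher and 100 lower, and the brightest bin a median of -0.09. Of 196 olfactory or vomeronasal receptor genes tested, 116 were lower and 2 higher at an unadjusted p under 0.05, with a median of -0.70 (-0.38 within slide 1), and 60 were above background on all 15 arrays. Over all genes, 7.92% were lower and 3.62% higher at that unadjusted p. Among the 40 genes of lowest p, 10 were such receptors, beside 196 among all 12343 genes tested. The pooled rats also had the lower mean share of spots above background, and its part in these receptor values was not tested. Whether the share and the receptor values moved together from rat to rat was not tested either.

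**Figure D1:**
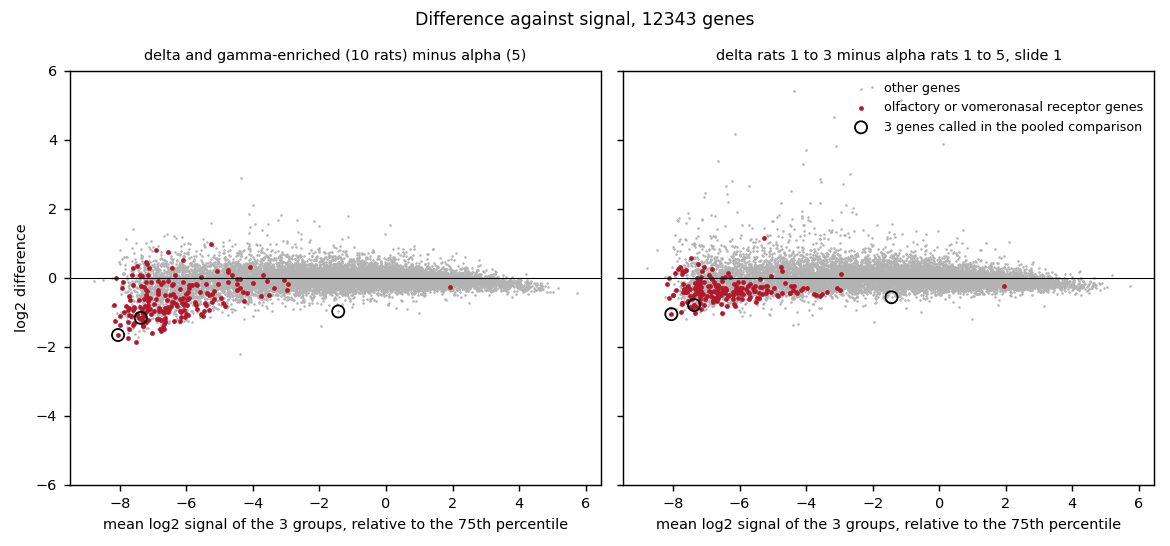
Log2 difference of each of 12343 genes (vertical axis) against its mean log2 signal over the alpha, delta and gamma-enriched groups (horizontal axis), for the pooled comparison (left) and for delta rats 1 to 3 against alpha within slide 1 (right). Receptor genes, in red, sit at low signal and mostly below 0 on the left, and 2 of the 3 circled called genes are among them; the third, Dusp1, stands alone at middle signal.

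A group of genes lay just past the threshold. Besides the 3 called, 21 had an adjusted p between 0.05 and 0.051, and 18 of these were lower; 35 genes in all were under 0.06. Genes in the next paragraphs were picked after their values were seen, as the 12 of lowest p among genes above background on all 15 arrays. Of these, Dusp1 passed the test and the others had adjusted p-values from 0.0504 to 0.0601 (Defb5) in limma. Their values are descriptions.

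Gadd45g, a stress-inducible gene of growth arrest, had 1.05, 1.34, 1.28, 0.54 and 1.92 in alpha rats 1 to 5. It had 0.81, 1.17, -0.01, 0.26 and 0.09 in delta rats and 0.19, 0.11, 0.19, 0.09 and 0.27 in gamma-enriched rats. Delta rats 1 and 2 lay among the alpha rats and the other 8 lay below them (difference -0.91 ± 0.19, SE, limma adjusted p = 0.0504; slide 1 -0.57 ± 0.25). Rfx2, a transcription factor known for genes of cilia, averaged 0.88 ± 0.49 in alpha (SD, n = 5, range 0.10 to 1.39) and 0.01 ± 0.36 in the pooled rats (SD, n = 10, range -0.47 to 0.66). Its difference was -0.87 ± 0.17 (SE) pooled and -0.55 ± 0.24 within slide 1. For both genes NMBA and Control means, 0.21 and 0.38 for Gadd45g and -0.11 and -0.18 for Rfx2, lay near the pooled rats rather than the alpha rats.

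Iffo2, Vps72 and Lekr1 had groups that did not overlap. Iffo2 ranged from -0.55 to -0.25 in alpha and from -2.18 to -0.92 in the pooled rats, a difference of -0.87 ± 0.19 (SE, limma adjusted p = 0.0549). Vps72, a subunit of chromatin-remodelling complexes that exchange histone H2A.Z, ranged from -1.67 to -1.04 in alpha and from -2.29 to -1.73 in the pooled rats (-0.58 ± 0.12, SE). Lekr1 ranged from -4.50 to -3.77 in alpha and from -5.12 to -4.52 in the pooled rats (-0.62 ± 0.13, SE), but a second, dimmer probe of the gene differed by only -0.07. Over all genes, 33 (0.267%) had no overlap between the 10 and the 5 arrays, 30 of them lower and 3 higher in the pooled rats, and 2 of the 33 were called. Ervfrd-1, an endogenous retroviral envelope gene, differed by -0.94 ± 0.20 (SE) pooled and by -0.70 ± 0.24 within slide 1.

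On the higher side, Il33, an alarm cytokine that epithelial cells store in the nucleus, measured -0.90, -0.82, -0.34, -0.62 and -1.01 in alpha rats 1 to 5. Delta rats measured -0.38, -0.29, -0.22, -0.22 and -0.25, and gamma-enriched rats -0.08, -0.11, -0.23, -0.43 and 0.03. Alpha rat 3 was the one alpha rat within the pooled range, and the difference of 0.52 ± 0.10 (SE, limma adjusted p = 0.0504) was 0.44 ± 0.14 within slide 1. Mean Il33 was -0.27 in NMBA and -0.24 in Control rats, close to the pooled -0.22. Trdmt1, a methyltransferase acting on transfer RNA, averaged -5.58 ± 0.72 in alpha (SD, n = 5) and -4.54 ± 0.22 in the pooled rats (SD, n = 10), with 3 alpha rats below all 10 and 2 among them. It differed by 1.04 ± 0.21 (SE) pooled and by 0.96 ± 0.27 within slide 1. Defb5, a beta-defensin, differed by 0.93 ± 0.21 pooled and 0.48 ± 0.27 within slide 1. C1h19orf47 differed by 0.89 ± 0.18 pooled and 0.32 ± 0.20 within slide 1, and its second probe by 0.13.

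**Figure D2:**
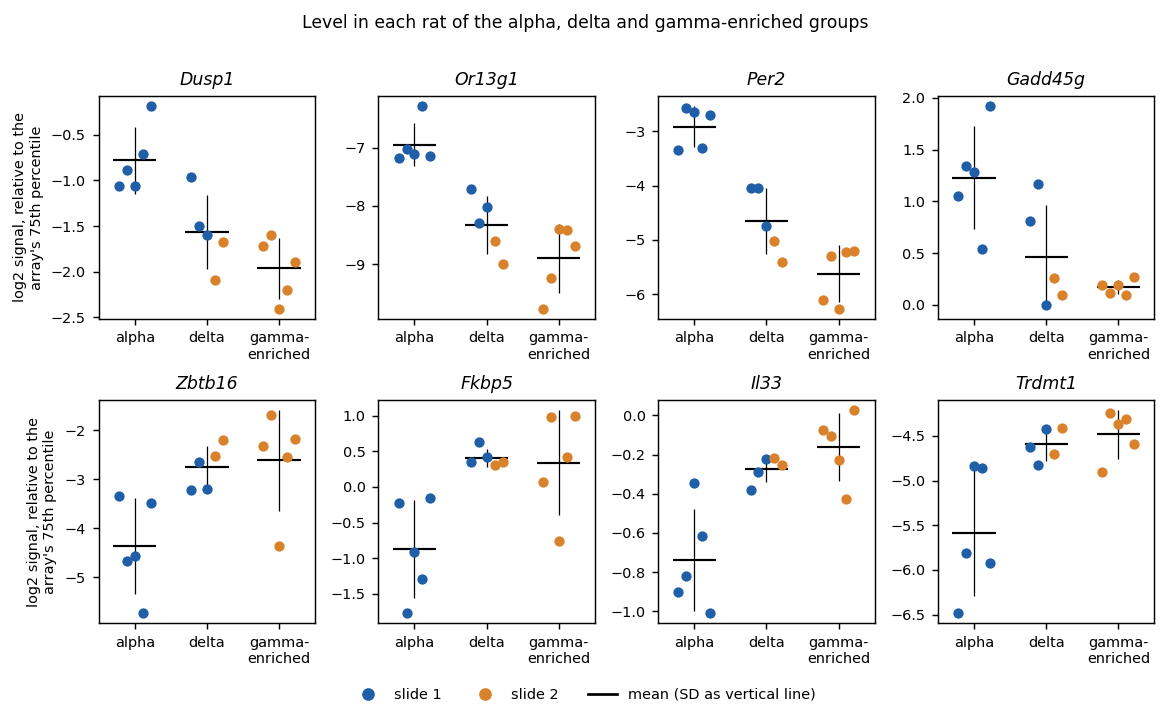
Log2 signal relative to the array's 75th percentile (vertical axis) for 8 genes in each alpha, delta and gamma-enriched rat, coloured by slide, with group mean and SD. All 5 alpha rats lie above the 10 others for Or13g1 and Per2, with Or13g1 not above background in any of the 10, while 1 delta rat of slide 1 reaches into the alpha range for Dusp1 and 2 for Gadd45g; Zbtb16, Fkbp5, Il33 and Trdmt1 run the other way with some overlap.

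Within slide 1, delta rats 1 to 3 against alpha rats 1 to 5 gave 0 called genes (0%) in limma with Benjamini-Hochberg adjustment; the lowest adjusted p was 0.961. Of the 12343 genes, 525 had an unadjusted p under 0.05 (4.25%), 192 higher and 333 lower, and 248 (2.01%) had no overlap between the 3 and the 5 arrays. The median standard error was 0.23, against 0.18 in the pooled comparison. The 95% interval lay within a 2-fold difference for 9622 genes (78.0%) on slide 1 and for 10444 genes (84.6%) in the pooled comparison. For these genes a difference beyond 2-fold in either direction lay outside the interval. Dusp1 and the other genes in the plot of pooled and slide 1 values had the same sign in both. The same alpha rats entered both values, and the delta rats of slide 1 were part of the pool.

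**Figure D3:**
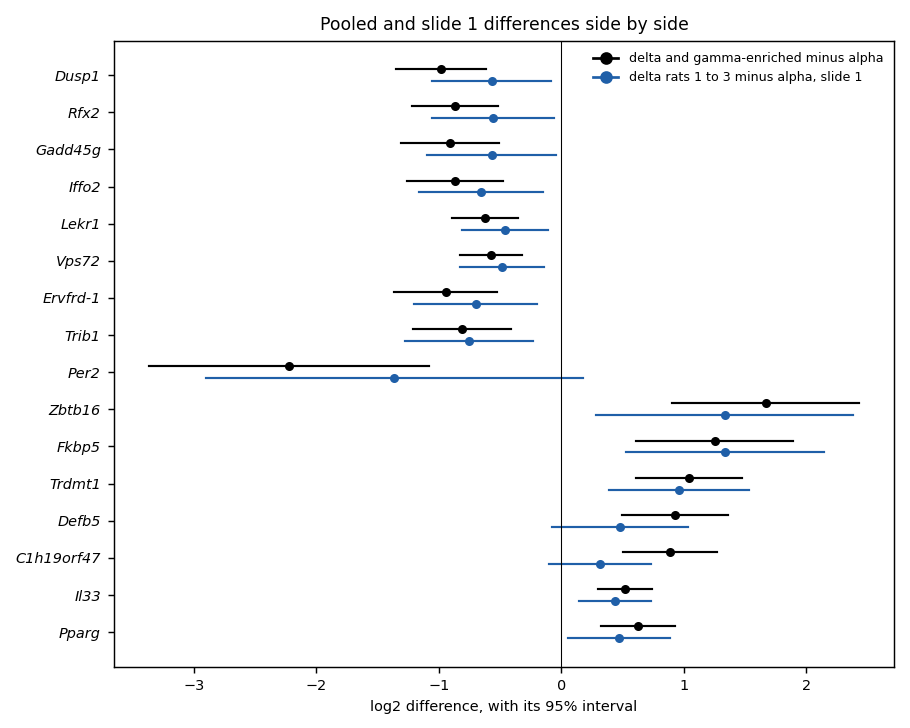
Log2 difference with its 95% interval (horizontal axis) for 16 named genes above background in all 15 rats, in the pooled comparison (black) and for delta rats 1 to 3 against alpha within slide 1 (blue). The slide 1 value lies closer to 0 for Dusp1 (-0.57 against -0.98) and Per2 (-1.36 against -2.22), and about level for Fkbp5 (1.34 against 1.25).

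The pool joined groups that gave different counts against alpha. With the 3 pairs of tocopherol groups tested separately, limma with Benjamini-Hochberg adjustment called 0 genes (0%) for delta against alpha and 200 genes (1.62%) for gamma-enriched against alpha, 20 higher and 180 lower. With p adjusted over the 3 pairs together, the counts were 0 for delta and 27 for gamma-enriched. For delta against alpha, 571 genes (4.63%) had an unadjusted p under 0.05. Gamma-enriched against delta, the test of the difference between the pooled groups, called 0 genes (0%), with 503 (4.08%) at an unadjusted p under 0.05 and a 95% interval within 2-fold for 9979 genes (80.8%). Within slide 2, gamma-enriched rats against delta rats 4 and 5 also gave 0 calls (0%) and 305 genes (2.47%) at an unadjusted p under 0.05. Thus the different counts against alpha did not come with any gene shown to differ between delta and gamma-enriched rats.

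The slides themselves could be compared only through delta rats. Delta rats 1 to 3 against delta rats 4 and 5 gave 0 calls (0%) and 548 genes (4.44%) at an unadjusted p under 0.05, with limma. For Dusp1 the rats of slide 1 were higher than those of slide 2 by 0.53 ± 0.29 (SE) and for Per2 by 0.94 ± 0.92. For Il33 and Trdmt1 the same difference was -0.06 ± 0.18 and -0.07 ± 0.34. Dusp1 in gamma-enriched rats was lower than in delta rats by 0.40 ± 0.20 (SE, limma adjusted p = 0.949).

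Among glucocorticoid-induced genes only Dusp1 was called. Of 24 tested members of this list, 19 had a lower and 5 a higher mean, and the median was -0.22. At an unadjusted p under 0.05, 5 were lower and 2 higher. Over all genes, 7439 had a lower and 4904 a higher mean, and the median was -0.06. At the same unadjusted p, 7.92% of all genes were lower and 3.62% higher. Zbtb16, a zinc-finger repressor, and Fkbp5, a co-chaperone of steroid receptors, were the 2 list members higher at that threshold, and neither passed the test. Zbtb16 measured -3.34, -4.67, -4.57, -5.73 and -3.48 in alpha rats 1 to 5. Delta rats measured -3.23, -2.64, -3.20, -2.53 and -2.21, and gamma-enriched rats -2.33, -1.69, -4.36, -2.54 and -2.18. All pooled rats but gamma-enriched rat 3 lay above every alpha rat, by 1.67 ± 0.37 in the mean (SE, limma adjusted p = 0.0561) and by 1.33 ± 0.50 within slide 1. Its limma adjusted p depended on the setting. With slide as a block the value was 1.21 ± 0.58 (SE) with an adjusted p of 0.698, and with array weights the adjusted p was 0.00565. Leaving out delta rat 1 gave 0.0321, and leaving out gamma-enriched rat 3 gave 0.0200. Gamma-enriched rat 3 was the pooled rat that overlapped alpha, so its removal sets the groups further apart by construction. With several of the other rats left out, no gene at all was called, so these values are no support for a difference. Zbtb16 fell by 2.33 ± 0.42 (SE) in NMBA against Control rats (limma adjusted p = 0.00448), a comparison in which 191 genes (1.55%) were called. Its means were -2.42 ± 0.45 in Control, -4.75 ± 0.37 in NMBA, -4.36 ± 0.98 in alpha (SD, n = 5 each) and -2.69 ± 0.75 in the pooled rats (SD, n = 10).

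Fkbp5 likewise had higher means in the pooled and Control rats than in alpha and NMBA rats. It measured -0.22, -1.77, -0.92, -1.30 and -0.16 in alpha rats 1 to 5. Delta rats measured 0.34, 0.63, 0.42, 0.31 and 0.35, and gamma-enriched rats 0.07, 0.99, -0.76, 0.42 and 1.003. All 10 except gamma-enriched rat 3 exceeded every alpha rat, by 1.25 ± 0.31 (SE, limma adjusted p = 0.0691) pooled and 1.34 ± 0.39 within slide 1. Fkbp5 fell by 1.58 ± 0.36 in NMBA against Control rats (limma adjusted p = 0.0209), whose means were -0.66 and 0.92. Most other members had lower means, as did 7439 of all 12343 genes. Tsc22d3, another glucocorticoid-induced gene, was at -0.33 and Per1 at -0.51, while Sgk1 was among the 5 higher at 0.78. The receptor gene itself, Nr3c1, was at -0.07.

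None of 15 tested clock genes was called, and 10 had a lower and 5 a higher mean. Over all 12343 genes, 7439 had a lower and 4904 a higher mean. Per2, a repressor of the clock loop, measured -3.35, -2.57, -2.65, -3.30 and -2.69 in alpha rats 1 to 5. Delta rats measured -4.04, -4.04, -4.74, -5.03 and -5.41, and gamma-enriched rats -6.12, -5.29, -6.27, -5.23 and -5.20. The groups did not overlap, on slide 1 either, and the difference was -2.22 ± 0.55 (SE), 4.67-fold, with a limma adjusted p of 0.0692. Per2 also varied widely outside these groups, with an SD of 1.92 in NMBA and 1.15 in Control rats. Its limma adjusted p was 0.005019 with 3 group means over the 15 tocopherol arrays, but Per2 did not pass with those arrays as 2 groups. With slide as a block the difference was -1.56 ± 0.85 (SE, limma adjusted p = 0.698). Nr1d1, which encodes the clock repressor REV-ERB alpha, averaged -5.07 ± 1.97 in alpha and -3.61 ± 0.72 in the pooled rats, with alpha rat 3 at -1.59 and the other alpha rats between -6.26 and -5.46. Its difference was 1.46 ± 0.63 (SE, limma adjusted p = 0.366). Npas2 was at 0.95, Bmal1 at 0.52, Dbp at -1.03, Tef at -0.77 and Ciart at -1.21, and their values within slide 1 were 1.11, 0.58, -1.19, -0.88 and -1.36. The list's median was -0.20. No source used here gives the hour of tissue collection.

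Immediate early and heat-shock genes, which cells induce within minutes of a stimulus, gave Dusp1 as the one call. Of 35 tested, 28 had a lower and 7 a higher mean, beside 7439 lower and 4904 higher over all genes, and 5 were lower and 0 higher at an unadjusted p under 0.05 (median -0.13). Fos, a subunit of the AP-1 transcription factor, had levels of -1.81, -2.21, -2.99, 1.15 and 0.75 in alpha rats 1 to 5. The 10 pooled rats ranged from -3.18 to -2.02 with a median of -2.21. Alpha rats 4 and 5 stood far above every other rat and the remaining alpha rats lay close to the pooled ones (difference -1.40 ± 0.46, SE, limma adjusted p = 0.202). Trib1, a pseudokinase, averaged -4.25 ± 0.53 in alpha (SD, n = 5) and -5.06 ± 0.31 in the pooled rats (SD, n = 10), a difference of -0.81 ± 0.20 (SE, limma adjusted p = 0.0684) and -0.75 ± 0.25 within slide 1. Rasd1 was at -0.89 and Egr3 at -0.71, with slide 1 values of -0.10 and -0.24.

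**Figure D4:**
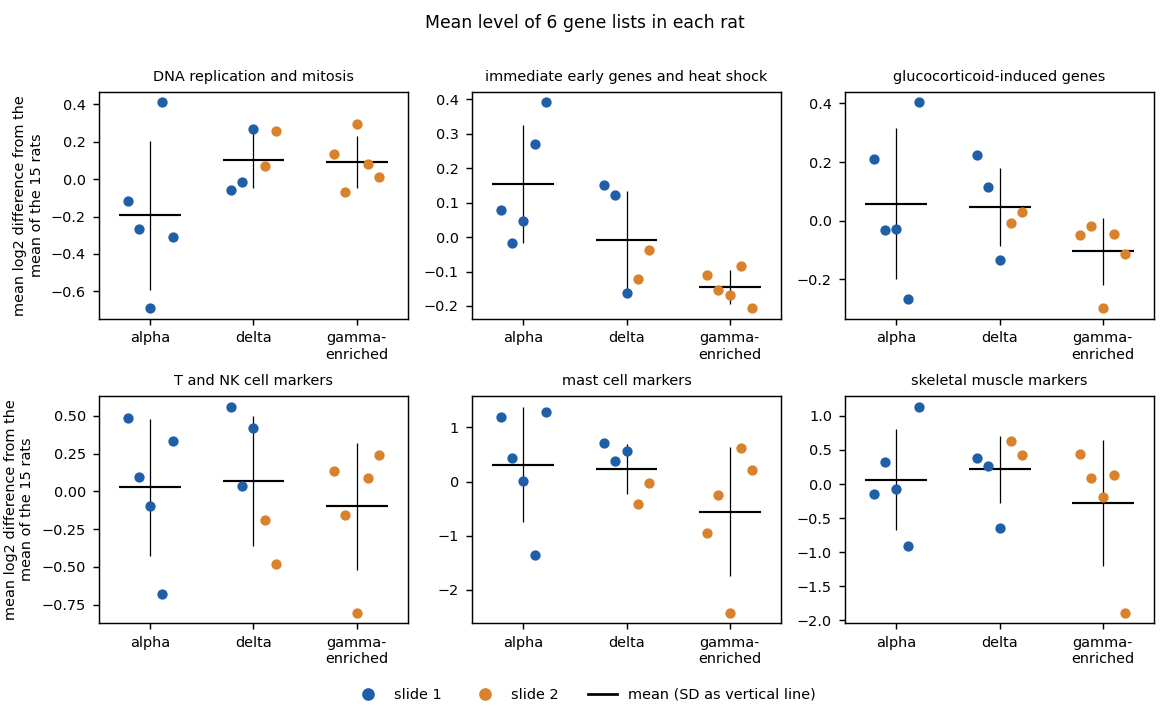
Mean log2 level of the tested members of 6 gene lists in each rat, relative to the mean of the 15 rats (vertical axis), coloured by slide, with group mean and SD. The 3 groups overlap in every panel except that the gamma-enriched rats lie below all alpha rats for immediate early and heat-shock genes; single rats lie far out for mast cell and skeletal muscle markers.

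Genes that handle vitamin E gave no call. Of 28 tested members of the list, 5 were lower and 0 higher at an unadjusted p under 0.05, with a median of -0.10 (0.03 within slide 1). Ttpa, the alpha-tocopherol transfer protein, averaged -4.03 in alpha and differed by -0.13 ± 0.22 (SE), with a 95% interval from -0.58 to 0.32. Within slide 1 Ttpa differed by -0.57 ± 0.28 (SE), with a 95% interval from -1.16 to 0.01. Abca1, a lipid exporter that also moves tocopherol out of cells, differed by -0.02 ± 0.15 (interval -0.33 to 0.28). Among the cytochrome P450 4F genes, Cyp4f17 differed by -0.38 ± 0.14 (limma adjusted p = 0.258), Cyp4f6 by -0.33 and Cyp4f18 by 0.20. Cyp4f1 was above background on 5 of the 15 arrays, and alpha rat 3, at -3.66, stood above all other rats, which lay between -8.03 and -6.38. The pooled Cyp4f1 value was -0.37 ± 0.48 with that rat and 0.43 without it. Nr1i2, the pregnane X receptor that vitamin E forms can activate in liver, was at -0.72 (limma adjusted p = 0.290).

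Antioxidant and carcinogen-handling genes likewise gave no call. Of 35 tested Nrf2 targets and antioxidant enzymes, 3 were higher and 0 lower at an unadjusted p under 0.05, and the median of -0.05 was near that of all genes. The 3 were Gclc and Gclm, the subunits of the enzyme that begins glutathione synthesis, at 0.43 and 0.91, and the glutathione reductase gene Gsr at 0.32; within slide 1 they were at 0.45, 0.87 and 0.44. Nqo1, the usual Nrf2 target, differed by -0.01 ± 0.12 (interval -0.26 to 0.24), and Nfe2l2, which encodes Nrf2, by 0.21 ± 0.18 (interval -0.16 to 0.57). Cyp2a3, a cytochrome P450 of nitrosamine activation in rat, differed by -0.05 ± 0.34 (interval -0.76 to 0.65). Of 18 tested xenobiotic genes, Ahr, the aryl hydrocarbon receptor, was at 0.61 ± 0.18 (SE, limma adjusted p = 0.122) and its target Cyp1a1 at 0.56, and the median was -0.02. For Ahr the delta and gamma-enriched parts differed in size, 0.28 and 0.95 against alpha, and the slide 1 value was 0.23 ± 0.23 (SE).

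Eicosanoid and lipid genes were mixed. Of 31 tested eicosanoid genes, 2 were higher and 3 lower at an unadjusted p under 0.05, none called, and the median was -0.15. Hpgds, a prostaglandin D synthase found in mast cells, was at -0.59 ± 0.23 (SE, limma adjusted p = 0.310) but at -0.02 within slide 1. Mast cell markers had a median of -0.48 pooled and 0.01 within slide 1 (14 tested, 0 called), and their part in the Hpgds value was not tested. Pparg, a lipid-sensing nuclear receptor, averaged -2.14 ± 0.35 in alpha (SD, n = 5) and -1.52 ± 0.23 in the pooled rats (SD, n = 10), a difference of 0.62 ± 0.15 (SE, limma adjusted p = 0.0666) with 0.47 ± 0.20 within slide 1. The other PPAR targets and fatty acid oxidation genes had a median of 0.02 with Pparg counted among 29. The 28 tested cholesterol and fatty acid synthesis genes had a median of -0.03, with Fdps, a synthase of the isoprenoid chain, at -0.25.

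Epithelial structure genes gave no call. Krt5, a keratin of basal cells, was at 0.33 ± 0.13 (SE, limma adjusted p = 0.307) and Krt4 and Krt13, the keratins of suprabasal esophageal cells, at -0.32 ± 0.13 and -0.22 ± 0.16. Within slide 1 these were 0.38, -0.28 and -0.17. Of 20 tested keratins and basal genes, 1 was higher and 3 lower at an unadjusted p under 0.05, with a median of 0.02. Krt7, Krt8, Krt18 and Krt19, keratins of simple and glandular epithelium, ranged from 0.00 to 0.73 pooled and from 1.52 to 2.03 within slide 1. Secretory gland and airway markers moved beside them, with a median of 0.07 pooled and 0.76 within slide 1. The largest was Bpifb1, at 2.88 pooled and 5.403 within slide 1. The mean level of these gland markers was high in delta rats 1 and 3 and in alpha rats 1 and 5 (1.33 to 2.08 above the mean of the 15 rats) and lowest in delta rat 4 (-1.69). Of 31 cornified envelope and squamous differentiation genes, 2 were higher and 1 lower at an unadjusted p under 0.05, with Ivl, the envelope precursor involucrin, at 0.55 ± 0.22. Their median was -0.08.

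Proliferation genes leaned higher without a call. Of 42 tested genes of DNA replication and mitosis, 34 had a higher mean (4904 of 12343 over all genes), 9 were higher and 1 lower at an unadjusted p under 0.05, and the median was 0.34, against -0.06 over all genes. It was 0.32 for delta and 0.30 for gamma-enriched against alpha, 0.23 within slide 1 and 0.15 with slide as a block. The mitotic genes Aurka (0.75 ± 0.31), Bub1 (0.75 ± 0.31), Hmmr (0.79 ± 0.30), Plk1 (0.57 ± 0.26) and Birc5 (0.56 ± 0.20, SE) were among the 9. The replication genes Mcm2, Mcm7, Pcna and Cdc45 lay between -0.17 and 0.00, and Gins2 was the 1 gene lower at an unadjusted p under 0.05, at -0.44. Mki67, which cycling cells express, measured 1.80, 0.94, 0.53, 1.84 and 0.77 in alpha rats and from 0.46 to 2.21 in the pooled rats. Its difference of 0.41 ± 0.28 (interval -0.17 to 0.99) became -0.10 within slide 1. Per rat, the mean level of the list spanned -0.69 to 0.41 in alpha, a range that held all 10 pooled rats.

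Cell cycle control genes showed the same lack of calls. Ccnd1, cyclin D1, measured 2.48, 2.28, 2.30, 2.19 and 2.47 in alpha rats 1 to 5. Pooled rats ranged from 1.52 to 2.22 with a difference of -0.42 ± 0.14 (SE, limma adjusted p = 0.213); gamma-enriched rat 3, at 2.22, and delta rat 5, at 2.20, were the pooled rats that reached the alpha range. Cdkn2b, an inhibitor of the kinases that cyclin D activates, was at 0.71 ± 0.22 (limma adjusted p = 0.172) and at 0.75 ± 0.28 within slide 1. Cdkn1a, the p53-induced inhibitor p21, was at 0.01 ± 0.12 (interval -0.25 to 0.26), but a second, dimmer probe of the gene differed by -0.33. Areg, an EGF receptor ligand, was at -0.38 ± 0.13 (limma adjusted p = 0.206). Of 26 p53 and DNA damage genes, 1 was higher and 2 lower at an unadjusted p under 0.05.

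Immune genes gave no call, and their medians differed between the pooled and slide 1 comparisons. For T and NK cell markers (26 tested) the median was -0.10 pooled, 0.28 within slide 1 and 0.33 with slide as a block. For the chemokine receptor gene Cxcr3 and its ligands (6 tested) it was -0.15, 0.31 and 0.61, and for MHC class II (10 tested) -0.23, 0.05 and 0.11. Cxcl10, an interferon-induced ligand of CXCR3, ranged from -3.64 to -2.09 in alpha and from -4.89 to -1.64 in the pooled rats, which enclosed the alpha range (difference -0.12 ± 0.46, interval -1.06 to 0.82). Cxcr3 itself was at -0.17 ± 0.36 pooled and 0.44 ± 0.45 within slide 1. Of 34 interferon-induced genes 0 passed even an unadjusted p of 0.05 in the pooled comparison. Rela, the p65 subunit of NF-kB, was at 0.08 ± 0.20, and a second, dimmer probe of the gene at -0.28. Saa4, a serum amyloid gene, was at -1.30 ± 0.43 (SE, limma adjusted p = 0.206) with 0 of 5 gamma-enriched arrays above background. In a bulk tissue sample, fewer cells of a type and less RNA per cell cannot be told apart.

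Markers of underlying tissue spanned wide ranges within each group. Fibroblast and matrix markers had a median of -0.31 pooled and -0.10 within slide 1, macrophage markers -0.28 and 0.03, and skeletal muscle markers -0.23 and -0.24. The mean level of muscle markers ran from -0.91 to 1.14 in alpha, from -0.64 to 0.64 in delta and from -1.89 to 0.45 in gamma-enriched rats. Myh7, a slow muscle myosin, was at 1.55 ± 0.48 (SE, limma adjusted p = 0.160). Cytosolic ribosomal protein genes had a lower mean in 33 of 37 members (7439 of 12343 over all genes), with a median of -0.21 (-0.19 within slide 1), the sign of the brightest genes as a whole. Mitochondrial respiratory chain genes had a median of -0.12 in 33 members. None of these lists had a called member.

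**Figure D5:**
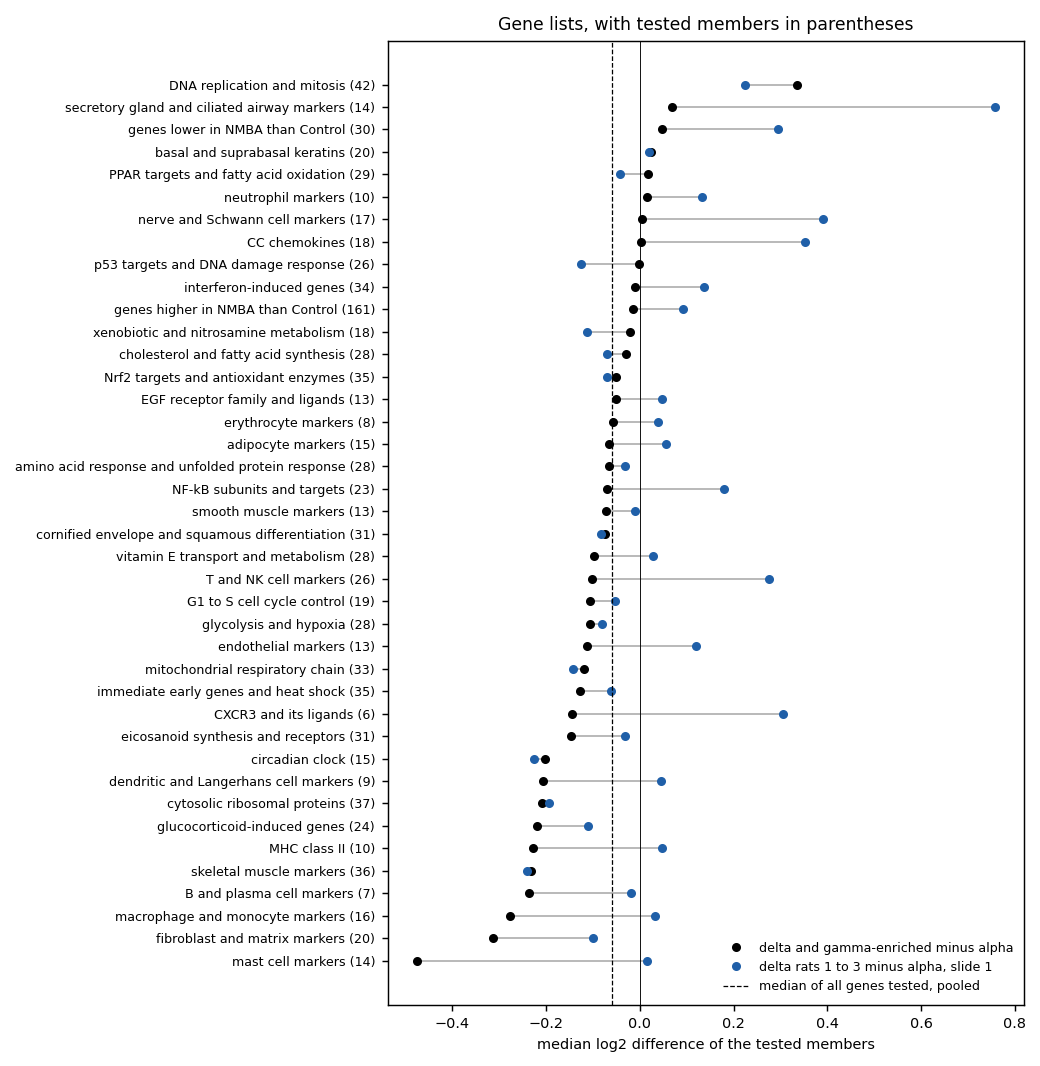
Median log2 difference (horizontal axis) of the tested members of each gene list, in the pooled comparison (black) and for delta rats 1 to 3 against alpha within slide 1 (blue), with the number tested in parentheses and the median of all genes dashed. Genes of DNA replication and mitosis have the highest pooled median (0.34) and mast cell markers the lowest (-0.48), and the medians of several immune and stromal lists lie on opposite sides of 0 in the 2 comparisons.

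Genes that NMBA itself changed gave no call between the ring forms. Of the 161 genes called higher in NMBA than in Control rats, 77 were higher and 84 lower in the pooled comparison, 0 were called, and their median was -0.01 (0.09 within slide 1). Of the 30 called lower in NMBA, 19 were higher and 11 lower, 0 were called, and the median was 0.05 (0.29 within slide 1). At an unadjusted p under 0.05, 8 of the 161 were higher and 8 lower, and 3 of the 30 were higher and 2 lower. Over all 12343 genes, 4904 were higher and 7439 lower, with a median of -0.06 (-0.04 within slide 1). At the same unadjusted p, 3.62% of all genes were higher and 7.92% lower. Zbtb16 and Fkbp5 headed the 30 by p, and Sema3d, a semaphorin, was the lowest at -0.52.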

How the data were processed

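Each 1-colour Agilent array gave 58717 non-control spots for 30367 probes. The intensity values deposited by the authors are processed signals (background-subtracted), from Feature Extraction 11.5.1.1 per the file headers and 10.7 per the submitters' processing notes. The deposited value table is on a log2 scale, each column set near 0 at its 75th percentile (medians -3.33 to -2.99), and served as an alternative. Outlier spots were dropped, log2 signals were set relative to the array's 75th percentile, spots averaged, and each gene represented by its brightest probe well above background on at least 5 of 25 arrays. By accession, 18355 probes matched a RefSeq symbol (GRCr8) and 12012 none; the array was designed on an older genome, so only names were used. Group means over 25 arrays were fitted with limma 3.58.1 in R 4.3.3 (20 residual degrees of freedom), and group-by-slide means (17) for slide 1, adjusted per comparison by Benjamini-Hochberg at 0.05. Fits were tested on simulated data. Alternatives covered background correction, normalization, filters, probes, weights, slide, array row, arrays fitted and each rat left out; normexp used the median signal.

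Members and gene lists were chosen with earlier results of these data known. The rule named called genes without overlap, called list members and 16 genes of standing interest; others were named after their values were seen, by lowest p among all genes, by lowest p in a list, or as list members with an adjusted p under 0.1 or beyond 2-fold.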

Additional observations from a re-analysis of the deposited data

Results flagged for a closer look

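Among 180 groups of 5 rats examined, 12 had 1 rat set apart from the other 4 by Dixon's criterion at its 95% level, and chance gives about 1 in 20. All values are log2 signals relative to the array's 75th percentile. In alpha rats, Or13g1 was -6.28 in rat 4 (the others -7.18 to -7.02), Cyp4f1 was -3.66 in rat 3 (others -8.03 to -6.87) and Nr1d1 was -1.59 in rat 3 (others -6.26 to -5.46). Also in alpha rats, Pparg was -2.76 in rat 2 (others -2.13 to -1.89), Trib1 was -5.15 in rat 2 (others -4.20 to -3.82) and Stfa3l1 was -6.25 in rat 1 (others -4.51 to -3.95). In delta rats, Abca1 was -2.99 in rat 5 (others -2.52 to -2.40), Fos was -2.73 in rat 3 (others -2.12 to -2.02) and the respiratory chain gene Sdhc was 0.0512 in rat 1 (others 1.72 to 2.07). In gamma-enriched rats, rat 3 was set apart for Nqo1 at 3.73 (others 3.09 to 3.20) and for Ccnd1 at 2.22 (others 1.78 to 1.82), and rat 2 for the B cell gene Cd79b at -9.35 (others -7.99 to -7.58), which was above background on no gamma-enriched array.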

How the results depend on the processing

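The pooled count of 3 genes depended on the processing. It was 0 with normexp background correction, with probes well above background on at least 15 arrays, with array row as a term, with slide as a fixed block and with the 15 tocopherol arrays fitted as 2 groups, and 1 with rat number as a replicate block. It was 29 with the deposited value table, 42 without a filter, 61 with quantile normalization, 119 with 3 group means over 15 arrays, 172 with slide as a random block and 459 with array weights, mostly lower. The random block had a negative estimated correlation within slides (-0.0311), so its count is not one with slide differences taken out. Leaving out 1 rat gave 0 to 188: 188 without alpha rat 4, 123 without delta rat 1, 55 without gamma-enriched rat 3, 15 without delta rat 2, 7 without alpha rat 3, 1 without gamma-enriched rat 4 and 0 without any other; the cause was not tested. The slide 1 and the gamma-enriched against delta counts were 0 under every alternative run, the replicate block included. Same-numbered rats of different groups did not deviate together (correlation -0.58 to 0.28, above 0.1 in 2 of 15 pairs), so the numbers were not taken as pairs.

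With slide as a fixed block, list medians became -0.12 (p53 targets), 0.61 (CXCR3 and ligands), 0.11 (MHC class II), 0.0168 (amino acid response), 0.33 (T and NK markers) and 0.21 (dendritic and Langerhans markers). The sign of the median also turned there for vitamin E genes (0.02), PPAR targets (-0.10), the EGF receptor family (0.06), interferon-induced genes (0.19), NF-kB (0.07), macrophage (0.10), mast cell (0.04) and nerve markers (-0.05), and genes higher in NMBA (0.07). Signs turned for 12 uncalled named genes. Under that block they were Abca1 0.16, Mki67 -0.25, Cdkn1a -0.12, Cxcl10 0.23, Cxcr3 0.75, Cxcl9 0.54 and RT1-DOb 0.18. Quantile normalization gave Nqo1 0.11, Cyp2a3 0.0508 and Krt13 0.0587, and array weights Nqo1 0.00554 and Cyp2a3 0.0061. Cdkn1a was -0.016 with normexp, -0.16 with averaged probes and -0.015 with the deposited table, and Rela -0.10 with averaged probes. Leaving out 1 rat turned Nqo1 (0.0058 to 0.032), Abca1 (0.000329 to 0.060), Cyp2a3 (0.026 to 0.21), Cdkn1a (-0.064 to -4.145e-06), Cxcl10 (0.044 to 0.11) and Cyp4f1 (0.43). Dim signals limit the receptor genes.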
